A study of Mus musculus with 4 samples.

Results

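The leukocyte immunoglobulin-like receptors (LILRs) were described here across the human immune cells of MDA-MB-231 tumors. The members were LILRA1, LILRA2, LILRA4, LILRA5, LILRB1, LILRB2, LILRB3, LILRB4 and LILRB5, which were found by gene symbol in the feature lists of both reactions and made up 9 of the 36601 genes counted. Each member had 1 row in each list. LILRA6 and the antisense gene LILRB1-AS1 were listed too but were not among the members.

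LILRs are receptors of myeloid and some lymphoid cells, encoded side by side in the leukocyte receptor complex. The A members described here have short tails and signal through the adaptor FCER1G, which carries an activating motif. The B members carry inhibitory motifs in their own tails, which recruit the phosphatases PTPN6 and PTPN11 and lower the response of the cell. LILRB1 and LILRB2 bind HLA class I molecules, and the family is best known for setting the activation threshold of monocytes, macrophages and dendritic cells.

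The cells came from MISTRG mice, which express human cytokine genes and were irradiated as pups and engrafted with human CD34+ cells from fetal liver. All 14 mice carried orthotopic tumors of MDA-MB-231, an established human breast carcinoma cell line, in the mammary fat pad. In 7 mice the drug maraviroc was dissolved in the drinking water for 10 days from day 21, and 7 mice were left untreated. Tumors were taken on day 31, mononuclear cells were enriched on a density gradient, and live human CD45+ cells were sorted, so that granulocytes and mouse cells were largely left out. Each mouse of a reaction had its own hashtag antibody, the same 7 being used in both reactions, and its treatment was read from the name of that hashtag in the feature lists. Reaction 1 held 4 untreated and 3 maraviroc mice, and reaction 2 held 3 untreated and 4 maraviroc mice. The age of the mice and the number of cell donors are not given in the sources used here.

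Of 37806 barcodes within the limits on detected genes and mitochondrial UMIs, 19871 carried the hashtag of a single mouse and were kept, at 690 to 3030 cells and 5996882 to 14963342 UMIs a mouse. The median cell of reaction 1 had 3020 UMIs and that of reaction 2 had 9767.5 UMIs. Reaction 1 also lost more barcodes to doublet calls, 10174 of its 27645 barcodes within limits against 1961 of 10161 in reaction 2. A total of 136 barcode sequences occurred in both reactions, 33 of them among kept cells. Cells were placed into gates by the UMIs of marker genes, none of which was an LILR gene, and 14126 kept cells fell into the 18 gates of at least 50 cells that were described. A further 4095 kept cells, 20.6%, fell into no gate. Another 978 T or NK cells and 634 myeloid cells stayed unresolved, and the gate of 38 plasmacytoid cells was too small to be described.

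Levels are given in CPM, the UMIs of a gene per 1000000 UMIs of all genes in the cells of a gate, with 95% exact Poisson intervals that cover counting error only. Since the assay counts transcript ends, a level can be compared between gates for 1 gene but was not compared between genes. Among the members, 8 had 86.6% to 93.0% of their UMIs in the myeloid gates. The exception was LILRA4, with 16.8% of its 678 UMIs there. LILRB1, with 14005 UMIs, had the most counts behind its values, and LILRA2, with 2341, had the fewest of the other 8.

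In T cells, which served as the background for free RNA, every member was at or under 3.29 CPM. This value belonged to LILRB1 (2.54 to 4.18 CPM). LILRB3 was at 2.44 CPM in T cells and LILRB4 at 1.35 CPM. The tumor cells of the sorted fraction stayed at or under 6.49 CPM for every member and the mast cells at or under 11.6 CPM, the value of LILRB2 on 7 UMIs. The myeloid gates lay far above these values for most members, and the highest gate differed by member. It was the S100A12+ or the nonclassical monocytes, whose intervals overlapped, for LILRA1, LILRA2, LILRA5 and LILRB1 to LILRB3, the LYVE1+ macrophages for LILRB5, and the plasmacytoid dendritic cells for LILRA4 and LILRB4. For LILRB2 the MT1G+ cells, at 190 CPM (178 to 202), also overlapped with these monocytes.

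**Figure D1:**
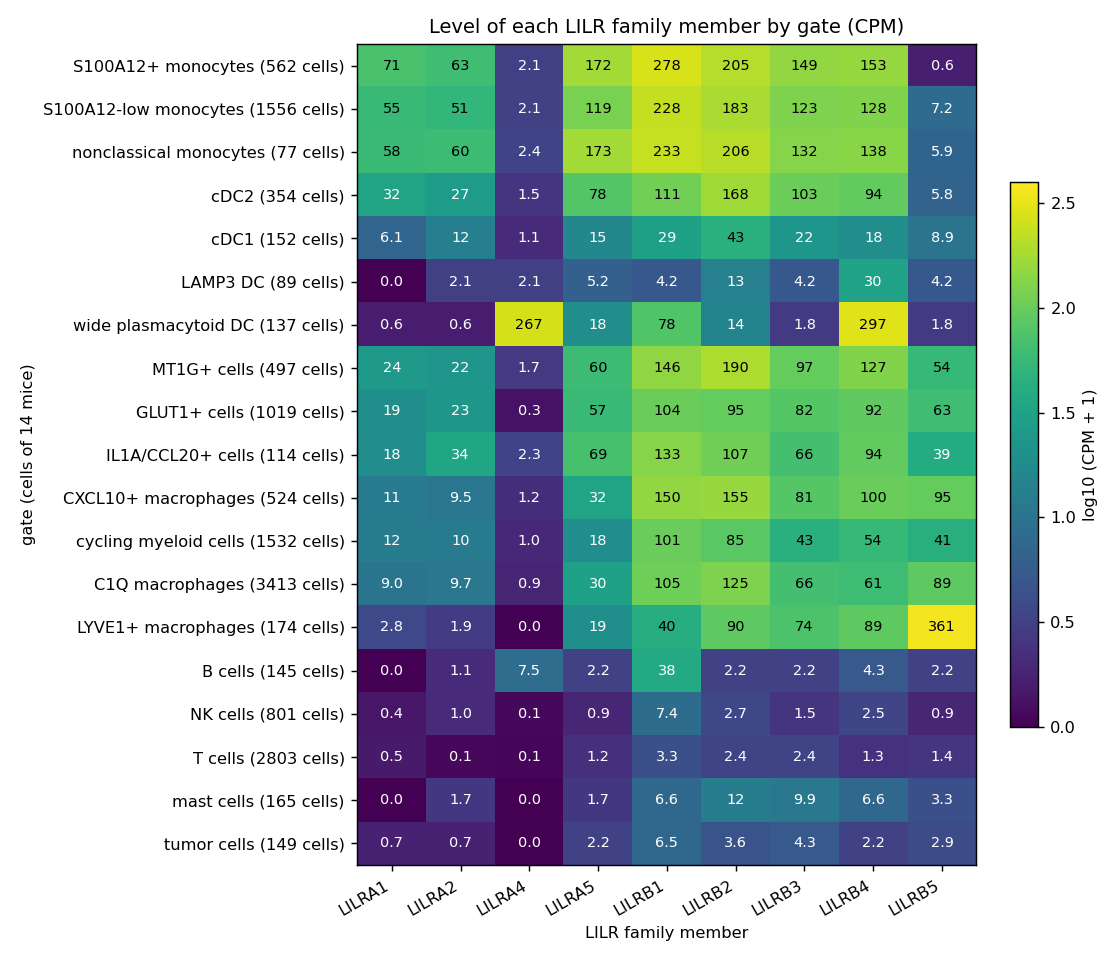
Level of the 9 members (columns) in 19 gates (rows, with the number of cells), printed in CPM and coloured by log10 of CPM + 1. Monocytes and cDC2 were bright for LILRA1, LILRA2, LILRA5 and LILRB1 to LILRB4, LILRB5 was brightest in LYVE1+ macrophages at 361 CPM, and LILRA4 and LILRB4 were brightest in the wide plasmacytoid gate at 267 and 297 CPM.

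Monocytes were set against C1Q macrophages first, as the 2 largest differentiated myeloid gates. The 2118 monocytes were gated by FCN1, VCAN and S100A12, and the 3413 C1Q macrophages by at least 10 UMIs of C1QA, C1QB and C1QC per 10000. All 14 mice had at least 10 cells in both gates, so each mouse was its own control in the test. Of the 9846 genes tested 59.9% passed, and of the 8 members tested 8 passed, 7 higher in monocytes and 1 lower. With a majority of all genes passing, this count is not a result about the family, whose members are described by direction and size.

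The activating receptors showed the steepest differences among the members higher in monocytes. LILRA1, an activating member reported to bind HLA class I, was at 42.5 CPM in the lowest mouse, 53.6 in the median mouse and 89.8 in the highest mouse in monocytes, against 4.68, 8.45 and 17.4 CPM in C1Q macrophages. The lowest monocyte value lay above the highest macrophage value, and the log2 fold change was 2.69 ± 0.14 (SE, edgeR adjusted p = 1.68e-13, higher in 14 of 14 mice). LILRA2, which recognises immunoglobulins cut by microbial proteases, ranged from 38.3 to 69.5 CPM (median 54.4) in monocytes and from 7.53 to 20.2 CPM (median 8.77) in C1Q macrophages. Again no mouse overlapped, at a log2 fold change of 2.53 ± 0.12 (adjusted p = 2.7e-14).

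LILRA5, an activating receptor known from monocytes, ranged from 102 to 170.3 CPM (median 131) in monocytes and from 17.4 to 76.0 CPM (median 27.8) in C1Q macrophages. The groups did not overlap (log2 fold change 2.17 ± 0.15, adjusted p = 2.06e-11), but the upper end of the macrophage values was spread more widely than for LILRA1.

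The inhibitory receptors LILRB1 to LILRB4 were higher in the monocytes of 14 of 14 mice by smaller amounts. LILRB1, a broad HLA class I receptor, ranged from 151 to 317 CPM (median 245) in monocytes and from 80.8 to 139 CPM (median 103) in C1Q macrophages, with no overlap (log2 fold change 1.18 ± 0.06, adjusted p = 1.06e-13). LILRB4, reported as a receptor for apolipoprotein E and fibronectin, ranged from 94.3 to 158 CPM (median 135) against 34.7 to 87.3 CPM (median 62.6), also with no overlap (1.14 ± 0.07, adjusted p = 4.4e-12). These 2 genes were therefore still well above background in macrophages while lower than in monocytes.

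For the other 2 inhibitory members the ranges of the gates met. LILRB2, the second HLA class I receptor, ranged from 139 to 227 CPM (median 187) in monocytes and from 88.6 to 209 CPM (median 122) in C1Q macrophages, and its difference was the smallest of the family (0.58 ± 0.07, adjusted p = 3.24e-07). LILRB3 ranged from 94.9 to 156 CPM (median 131) against 43.9 to 107 CPM (median 67.2), a log2 fold change of 0.97 ± 0.09 (adjusted p = 1.25e-09). LILRB3 and LILRA6 are near-identical in much of their sequence, so the counts of LILRB3 are uncertain to the extent that reads were split between them. LILRA6 was at 61.8 CPM in monocytes and 44.2 CPM in C1Q macrophages, and its UMIs were 0.393 to 0.819 of those of LILRB3 in the monocyte, macrophage, cycling and cDC2 gates.

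LILRB5 ran the other way. This inhibitory-type member, whose ligands are less well known, ranged from 0 to 10.8 CPM (median 4.28) in monocytes and from 61.6 to 129 CPM (median 81.8) in C1Q macrophages. The lowest macrophage value lay far above the highest monocyte value, and LILRB5 was lower in the monocytes of 14 of 14 mice (log2 fold change −4.03 ± 0.17, adjusted p = 9.88e-15). After thinning every cell to 2000 UMIs, 15.2% of C1Q macrophages, 0.16% of S100A12+ monocytes and 0.37% of T cells held a UMI of LILRB5. Before thinning the shares were 34.2%, 0.7% and 1.0%. Its share in S100A12+ monocytes was therefore at the background seen in T cells. In S100A12-low monocytes the share was above it, at 1.56% after thinning and 4.5% before.

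**Figure D2:**
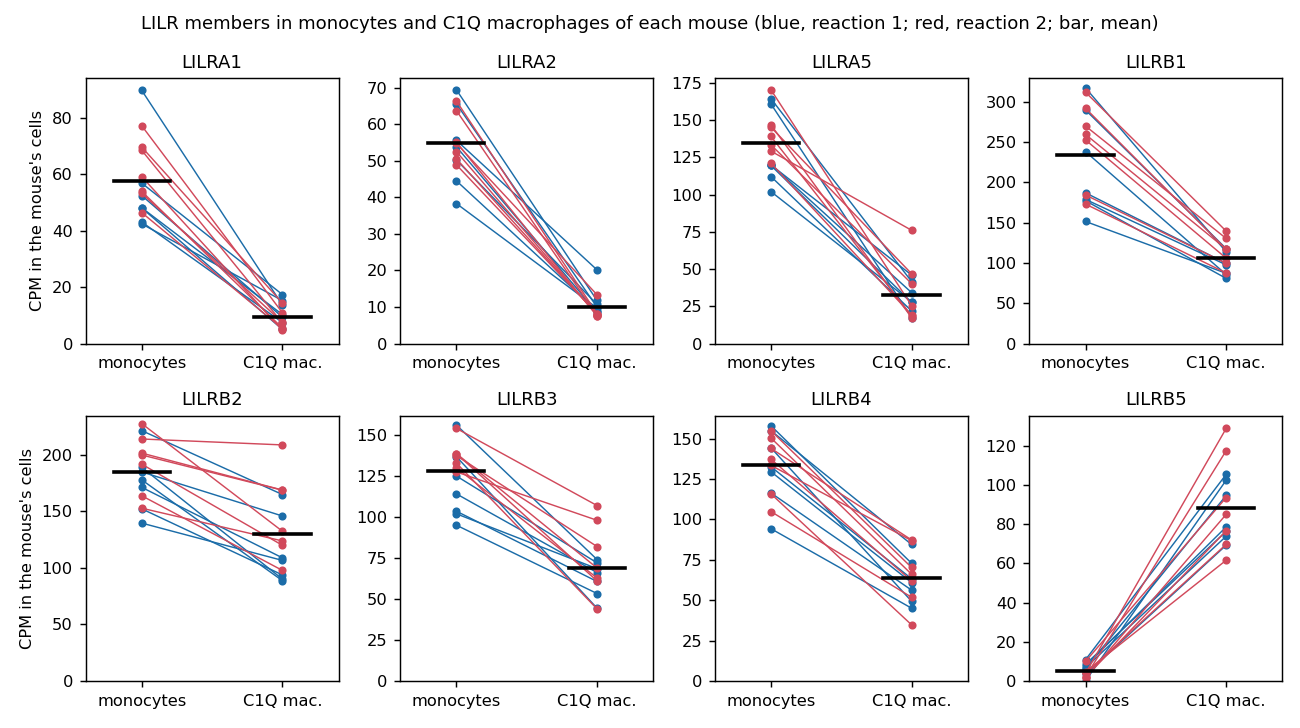
CPM of 8 members in the monocytes and C1Q macrophages of each mouse (1 point per mouse, lines joining the gates of a mouse, bars at the mean, reaction 1 in blue and reaction 2 in red, each axis starting at 0). LILRA1, LILRA2, LILRA5, LILRB1 and LILRB4 separated upward in monocytes with no overlap, LILRB2 and LILRB3 overlapped, and LILRB5 separated in the opposite direction, from at most 10.8 CPM in monocytes to at least 61.6 CPM in macrophages.

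The same cells were then divided by their C1Q UMIs per 10000, an added description with no test. Since the C1Q macrophage gate starts at 10, the bin below 10 held monocytes only. The step from this bin to the others therefore repeats the comparison of the gates, and only the later bins add to it. The activating members were lower from the second bin on. LILRA1 was at 60.2 CPM below 10 C1Q UMIs, 12.2 CPM from 10 to 25, and 7.47, 7.80 and 6.56 CPM in the next bins up to 100 or more. LILRA5 went from 136 to 41.2, 27.5, 20.8 and 27.6 CPM over the same bins. LILRB1 was lower from the same bin on and then level, at 244, 101, 106, 104 and 119 CPM.

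LILRB5 instead was higher in each next bin, from 5.06 to 59.5, 90.3, 115 and 135 CPM. The last step was seen in reaction 1 only, where LILRB5 reached 156 CPM in 168 cells, while reaction 2 had 100 CPM in 53 cells of the top bin and 118 CPM in the bin below. In the 9 mice with at least 10 cells in the first and the last bin, LILRB5 was higher in the last bin in 9, and LILRA1, LILRA2, LILRA5 and LILRB1 to LILRB4 were lower in 9. As the first bin held monocytes only, these counts are no separate support for the differences between the gates.

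**Figure D3:**
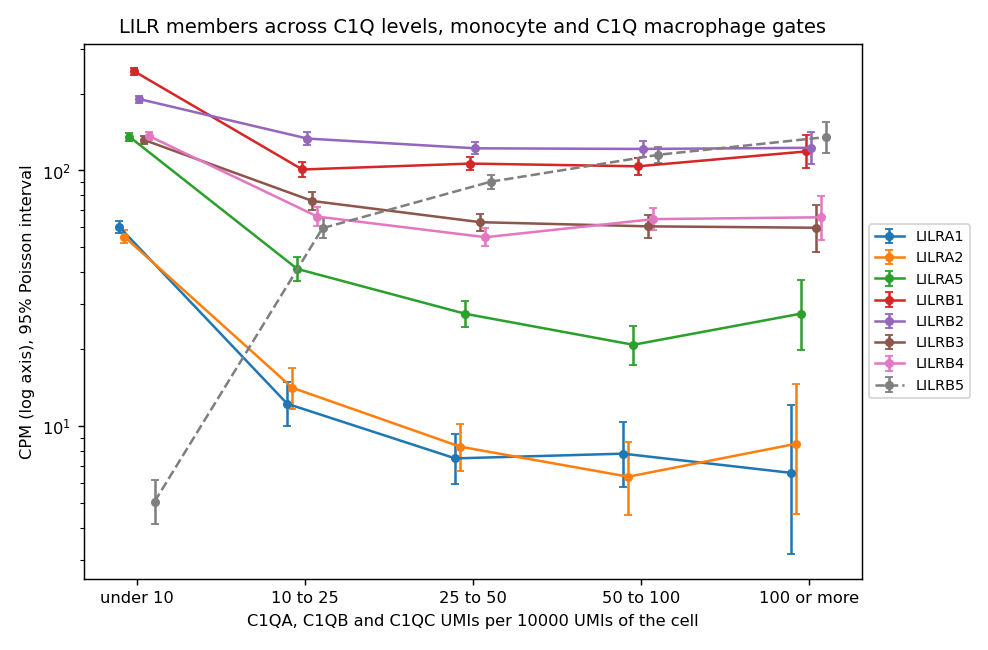
CPM of 8 members (log axis, 95% Poisson intervals) over 5 bins of C1QA, C1QB and C1QC UMIs per 10000 in the monocyte and C1Q macrophage gates, both reactions pooled. All lines but that of LILRB5 were lower after the first bin, and LILRB5 (dashed) climbed from 5.06 CPM to 135 CPM.

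Within the monocytes, 562 cells with at least 2 UMIs of S100A12 were compared with the 1556 others. S100A12+ cells mark the classical end of the monocyte range. The cut on UMIs also went with depth, at a median of 10962.5 UMIs in S100A12+ and 8512 in S100A12-low cells. In reaction 1 these medians were 8708 and 3409. The C1Q limit was reached by 0.36% of S100A12+ and 3.86% of S100A12-low cells. The part of depth and of C1Q UMIs in the differences was not tested. Of 6855 genes 12.7% passed, and 5 of the 7 members tested passed, each higher in S100A12+ cells. LILRA5 ranged from 127 to 228 CPM (median 170.1) in S100A12+ monocytes and from 95.1 to 160.3 CPM (median 116) in S100A12-low monocytes. The ranges overlapped, yet LILRA5 was higher in the S100A12+ cells of 14 of 14 mice (log2 fold change 0.56 ± 0.08, adjusted p = 1.41e-05).

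LILRB3 was higher in 13 of 14 mice (0.37 ± 0.07, adjusted p = 0.00148), LILRB4 in 11 (0.27 ± 0.08, adjusted p = 0.0203), LILRA1 in 10 (0.45 ± 0.15, adjusted p = 0.0423) and LILRB1 in 9 (0.34 ± 0.10, adjusted p = 0.0219). LILRA2, at a log2 fold change of 0.36 ± 0.13, and LILRB2, at 0.22 ± 0.07, did not pass (adjusted p = 0.0693 and 0.053). Without the mouse as a block 2 members passed instead of 5, and 687 of the 6855 genes instead of 870. LILRB5 had few UMIs in either gate, at 0.64 CPM (0.174 to 1.64) in S100A12+ and 7.15 CPM (5.82 to 8.70) in S100A12-low monocytes, and was under the low-count limit of the test.

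The summed level of 4 neutrophil markers moved with the monocyte gates, at 148 CPM in S100A12+ monocytes, 107 CPM in S100A12-low monocytes and 62.5 CPM in C1Q macrophages. Nearly all of it was CSF3R, which monocytes also express, while CEACAM8 was at 0 in S100A12+ monocytes and C1Q macrophages, and FCGR3B and CXCR2 were at or under 3.04 CPM. The 77 cells of the nonclassical monocyte gate, gated by CDKN1C, LYPD2 and VMO1, stayed close to the other monocytes in every member. LILRB1 was at 233 CPM (202 to 268) and LILRA5 at 173 CPM there. VCAN, a gene of the other monocyte gates, was at 2620 CPM in this gate, beside 2952 CPM in S100A12-low and 5443 CPM in S100A12+ monocytes. The part of classical monocytes in the gate was not tested. In 1 mouse the gate had at least 10 cells, so no test was made.

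Macrophages also occurred in states gated by other genes, each of which was set against C1Q macrophages of the same mice. GLUT1+ cells expressed the hypoxia genes SLC2A1, ADM, HILPDA and NDRG1, and MT1G+ cells expressed metallothioneins. Both gates were open to cells with few C1Q UMIs: 60.3% of the 1019 GLUT1+ cells and 61.6% of the 497 MT1G+ cells reached the C1Q limit of the macrophage gate. VCAN, a monocyte gene, was at 2229 CPM in GLUT1+ and 2115 CPM in MT1G+ cells against 603 CPM in C1Q macrophages. Each comparison was therefore also made with the cells at or above the C1Q limit only, a choice made after seeing the data, in which VCAN was at 903 and 1142 CPM.

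In GLUT1+ cells 7 of 8 members tested passed, 5 higher and 2 lower, where 45.8% of 8588 genes passed. LILRB4 ranged from 56.2 to 123 CPM (median 95.6) in GLUT1+ cells and, in C1Q macrophages, from 34.7 to 87.3 CPM (median 62.6), higher in 14 of 14 mice (log2 fold change 0.67 ± 0.08, adjusted p = 1.51e-07). LILRA2 was also higher in 14 of 14 mice (1.32 ± 0.15, adjusted p = 2.26e-07). LILRA5 was higher in 13 mice (0.99 ± 0.13), LILRA1 in 12 (1.13 ± 0.22) and LILRB3 in 10 (0.42 ± 0.10). LILRB2 (−0.33 ± 0.08) and LILRB5 (−0.37 ± 0.10) were each lower in 12 of 14 mice, and LILRB1 did not pass (0.07 ± 0.08, adjusted p = 0.503).

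Among GLUT1+ cells at or above the C1Q limit, 4 of 6 members passed beside 25.8% of 8035 genes. LILRB4 stayed higher at a reduced log2 fold change of 0.35 ± 0.09 (adjusted p = 0.00419, 11 of 14 mice) and LILRB2 stayed lower (−0.48 ± 0.10, adjusted p = 0.000737, 13 of 14 mice). LILRB5 turned to the other side, at 95.3 CPM against 89.1 CPM and a log2 fold change of 0.25 ± 0.09 (adjusted p = 0.0492, higher in 8 of 14 mice), and LILRB1 became lower (−0.36 ± 0.11, adjusted p = 0.0197, 13 of 14 mice). LILRA5 did not pass (−0.07 ± 0.20, adjusted p = 0.848). LILRA1 and LILRA2 were at 4.86 and 6.77 CPM in these cells, against 18.7 and 22.8 CPM in the whole GLUT1+ gate and 9.01 and 9.68 CPM in C1Q macrophages, and were under the low-count limit.

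In MT1G+ cells, of 8 members tested 8 passed beside 20.6% of 8661 genes, and 7 were higher, led by LILRA1 (1.34 ± 0.22, adjusted p = 6.85e-05), LILRA2 (1.16 ± 0.22, adjusted p = 0.000273) and LILRB4 (0.95 ± 0.10, adjusted p = 1.59e-07). LILRB2 was higher here (0.43 ± 0.10, adjusted p = 0.00179), where it had been lower in GLUT1+ cells, and LILRB1 passed as higher (0.40 ± 0.09, adjusted p = 0.00241). LILRB5 was lower in 13 of 14 mice (−0.73 ± 0.15, adjusted p = 0.000742). Among MT1G+ cells at or above the C1Q limit, in 13 mice, 1 of 6 members passed beside 4.13% of 8126 genes. This was LILRB4, at a log2 fold change of 0.60 ± 0.14 (adjusted p = 0.0132, higher in 12 of 13 mice), while LILRB5 was at −0.04 ± 0.14 (adjusted p = 0.943) and 85.1 CPM.

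CXCL10+ macrophages, gated by the interferon-induced chemokines CXCL9, CXCL10 and CXCL11 in cells above the C1Q limit, held 524 cells. Of 6 members tested 2 passed beside 10.6% of 8109 genes. LILRB1 ranged from 99.7 to 242 CPM (median 144) in CXCL10+ and from 80.8 to 139 CPM (median 103) in C1Q macrophages, overlapping but higher in 13 of 14 mice (log2 fold change 0.55 ± 0.10, adjusted p = 0.000253). LILRB4 ranged from 41.3 to 144 CPM (median 99.0), higher in 12 of 14 mice (0.63 ± 0.11, adjusted p = 0.000216). LILRB2 (0.22 ± 0.09), LILRB3 (0.24 ± 0.09), LILRB5 (0.13 ± 0.13) and LILRA5 (0.09 ± 0.23) did not pass. Of the class I genes that encode ligands of LILRB1, 5 of 5 tested were higher in this gate, among them HLA-F (0.74), HLA-C (0.51) and HLA-B (0.43). A link between these genes and LILRB1 was not tested. Nor was the part in their levels of gating on interferon-induced genes.

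LYVE1+ macrophages, gated by at least 2 UMIs of the resident macrophage gene LYVE1 in cells above the C1Q limit, held 174 cells, and 5 mice had at least 10. LILRB5 was at 337, 383, 386, 397 and 441 CPM in these mice, against a mean of 85.6 ± 20.6 CPM (SD) in their C1Q macrophages. Every mouse lay far above its own C1Q macrophages, and the log2 fold change was 2.28 ± 0.17 (adjusted p = 1.73e-07). LYVE1+ macrophages held LILRB5 at 329 CPM (286 to 377) in reaction 1 and 374 CPM (344 to 406) in reaction 2, and 48.7% of thinned cells, 84.5% before thinning, held a UMI of it.

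LILRB1 was lower in LYVE1+ macrophages. It was at 19.7, 25.2, 37.2, 52.3 and 52.7 CPM in the 5 mice, against a mean of 112 ± 20.4 CPM in their C1Q macrophages. No mouse overlapped, and the log2 fold change was −1.51 ± 0.23 (adjusted p = 0.000253, lower in 5 of 5 mice). These were 2 of the 6 members tested, beside 11.9% of 8887 genes. LILRB2 did not pass (−0.55 ± 0.19, adjusted p = 0.0709), but did so with 1 maraviroc mouse of reaction 2 left out (−0.73, adjusted p = 0.0384). LILRA5 (−0.55 ± 0.34), LILRB3 (0.17 ± 0.21) and LILRB4 (0.52 ± 0.24) did not pass either, and LILRA1 and LILRA2, which were under the low-count limit, were at 2.79 CPM (1.02 to 6.07) and 1.86 CPM (0.506 to 4.76) against 9.01 and 9.68 CPM in C1Q macrophages. With no limit on low counts 4 members were called, beside 1428 of 22505 genes.

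The 114 IL1A/CCL20+ cells, gated by inflammatory cytokine genes at any C1Q level, could be tested in 3 mice. LILRA5 was at 52.1, 75 and 100.3 CPM there and was 1 of 8 members to pass (log2 fold change 1.42 ± 0.29, adjusted p = 0.0468, higher in 3 of 3 mice), beside 1.24% of 8533 genes. No member passed without the mouse as a block or with any of the 3 mice left out. VCAN was at 2793 CPM in this gate, and 52.6% of its cells reached the C1Q limit. In the 60 cells at or above that limit, 4.49% of thinned cells held a UMI of LILRA5 (20% before). The whole gate had 11.1% (38.6% before) and C1Q macrophages 5.65% (15.7% before). Only 1 mouse had at least 10 of these 60 cells, so the part of cells with few C1Q UMIs in the difference was not tested.

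**Figure D4:**
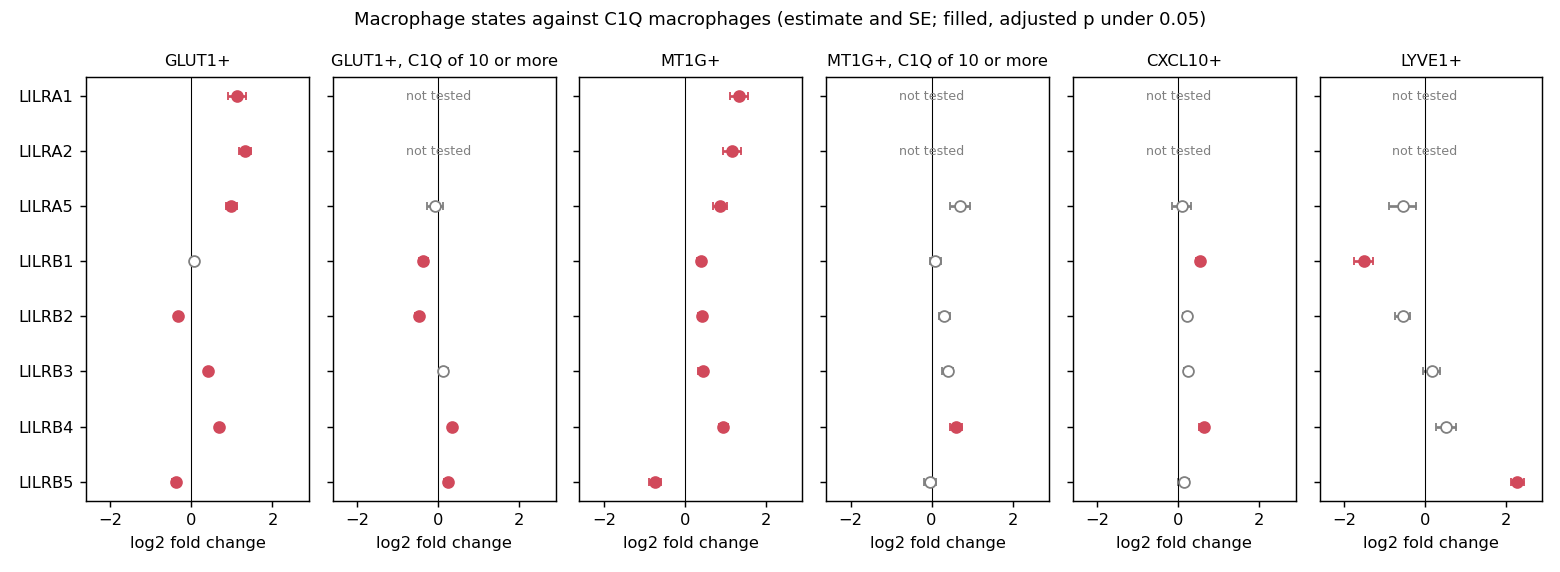
Log2 fold change (horizontal axis, point and SE) of 8 members (rows) in 6 comparisons of macrophage states with C1Q macrophages, filled where the adjusted p was under 0.05. LILRB5 lay far right at 2.28 and LILRB1 far left at −1.51 in LYVE1+ macrophages, LILRB4 was right of 0 and filled in every panel but that of LYVE1+ macrophages, and the points of LILRA1 and LILRA2 are absent where counts were too low.

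Among dendritic cells, the 354 cDC2, gated by CD1C, FCER1A and CD1E, were nearest to monocytes. VCAN, one of the genes of the monocyte gates, was at 1898 CPM in this gate, 3722 CPM in monocytes and 385 CPM in cDC1. The part of monocyte-like cells in the cDC2 levels, here and where cDC2 are the reference below, was not tested. Of 7070 genes 34.9% passed, and 5 of 7 members tested passed, all lower in cDC2. LILRB1 ranged from 21.4 to 251 CPM (median 114) in cDC2 and, in monocytes, from 151 to 317 CPM (median 245), lower in cDC2 in 13 of 14 mice (log2 fold change −0.98 ± 0.15, adjusted p = 2.6e-05). The ranges overlapped, and the cDC2 values were spread more widely in this small gate.

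LILRA5 (−0.75 ± 0.11, adjusted p = 8.82e-06) and LILRB4 (−0.48 ± 0.08, adjusted p = 9.79e-05) were lower in the cDC2 of 14 of 14 mice, LILRA2 (−0.93 ± 0.15) in 13 and LILRA1 (−0.77 ± 0.19) in 11. LILRB2 was at 86.9 to 258 CPM (median 167) in cDC2 and at 139 to 227 CPM (median 187) in monocytes, and did not pass (−0.13 ± 0.09, adjusted p = 0.305). LILRB3 did not pass either (−0.26 ± 0.11, adjusted p = 0.0743). LILRB5 was at 5.78 CPM in cDC2, which had been gated on few C1Q UMIs.

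The 152 cDC1, gated by CLEC9A, XCR1 and CLNK, were lower than cDC2. Their counts left 3 members above the low-count limit, and these 3 passed, beside 36.6% of 3203 genes in 9 mice. LILRB1 ranged from 13 to 56.7 CPM (median 29.0) in cDC1, below the same mice's cDC2 in 9 of 9 (log2 fold change −1.83 ± 0.29, adjusted p = 9.97e-05). LILRB4 ranged from 0 to 32.8 CPM (median 17.4, −2.33 ± 0.30, adjusted p = 1.74e-05, lower in 9 of 9). LILRB2, at 5.49 to 94.3 CPM (median 38.5), overlapped with cDC2 in range and was lower in 8 of 9 (−1.58 ± 0.32, adjusted p = 0.000884). C1Q UMIs reached the macrophage limit in 35.5% of cDC1, and LILRB5 was at 8.90 CPM there; the part of macrophage RNA in these values was not tested.

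Mature LAMP3 DC, which express CCR7 and leave tissues for lymph nodes, were also set against cDC2. In the 4 mice with at least 10 cells, 4 of 5 members tested passed as lower, beside 36.4% of 3219 genes. The counts were small, with 2 UMIs of LILRB1, 3 of LILRA5, 3 of LILRB3 and 6 of LILRB2 in all 4 mice. As ratios of pooled CPM with 95% counting intervals, LILRB1 stood at 4.23% of its level in cDC2 (0.509% to 15.5%), LILRB3 at 6.0% (1.23% to 17.8%), LILRB2 at 7.42% (2.70% to 16.3%) and LILRA5 at 8.01% (1.63% to 23.9%). The fitted log2 fold changes were −4.32 ± 0.72 for LILRB1 (adjusted p = 0.000191), −3.69 ± 0.72 for LILRB3 (adjusted p = 0.00074), −3.40 ± 0.50 for LILRB2 (adjusted p = 6.93e-05) and −3.41 ± 0.72 for LILRA5 (adjusted p = 0.0014).

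LILRB4 was the member with the most UMIs in LAMP3 DC, at 30.3 CPM there and 18.4 CPM in cDC1, gates that were not tested against each other. Its 16 UMIs put it at 36.0% of the level in cDC2 (20.1% to 60.1%), and it did not pass (−1.53 ± 0.58, adjusted p = 0.0508). With 1 maraviroc mouse of reaction 2 left out it passed, at −3.18 (adjusted p = 0.0156). Without the other maraviroc mouse of that reaction in the test, the fitted change of LILRB3 was −7.60. FCER1G, the adaptor of the A members, was also lower than in cDC2. The difference on the log2 scale was 3.84 in LAMP3 DC (adjusted p = 4.97e-06) and 1.62 in cDC1 (adjusted p = 2.58e-06). LILRA5 was the only A member tested in LAMP3 DC, and no A member was tested in cDC1.

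Plasmacytoid dendritic cells, the main interferon producers of the blood, were scarce. The planned gate held 38 cells, so a wider gate on the same markers (CLEC4C, LAMP5, PTCRA, SCT, SMPD3) was added after the data had been seen, in part because LILRA4 UMIs lay in cells of no gate. It held 137 cells, and 4 mice, all of reaction 2, had at least 10. LILRA4, the plasmacytoid receptor that binds BST2, was at 227, 249, 250.0 and 255 CPM in these mice. Because of how the gate was added, this is a description and no test is given. LILRA4 was at 267 CPM (243 to 292) over all 137 cells, at 273 CPM in the 38 cells of the narrow gate, at 7.54 CPM (3.03 to 15.5) in B cells and at or under 2.35 CPM in every other gate, and 40.2% of the wide gate's cells held a UMI after thinning (86.9% before).

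The wide plasmacytoid gate paired high LILRA4 with high LILRB4. LILRB4 was at 231, 237, 271 and 378 CPM in the 4 mice, each above its own cDC2, which had a mean of 103 ± 30.2 CPM (SD). The log2 fold change over cDC2 was 1.45 ± 0.20 (adjusted p = 3.62e-05), and 40.6% of thinned cells held a UMI (87.6% before). Since LILRA4 UMIs had a part in adding the gate, the tests of other members in it, here and below, are not independent of that choice. LILRB1, at 68.5 to 112 CPM, did not pass (−0.19 ± 0.27, adjusted p = 0.573).

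LILRA5, LILRB2 and LILRB3 were lower in plasmacytoid cells than in cDC2, in each of the 4 mice. LILRA5 had 19 UMIs (−2.07 ± 0.32, adjusted p = 8.51e-05) and LILRB2 had 16 (−3.33 ± 0.35, adjusted p = 2.44e-06). LILRB3 had 3, which put it at 2.93% of its level in cDC2 (0.598% to 8.70%), and LILRA1, which was not tested, had 0 UMIs where cDC2 was at 27.8 CPM. Leaving LILRA4 aside, 4 of 5 members tested passed beside 54.2% of 5259 genes. Neutrophil markers summed to 8.79 CPM in this gate, against 65.7 CPM in cDC2. T cell markers summed to 37.5 CPM, above the 15.2 CPM of cDC2 and far below the 2344 CPM of T cells. The wide gate asked for at least 5 plasmacytoid UMIs and 50% of a cell's marker UMIs. The part of other lineages in it was not tested.

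In lymphoid cells, LILRB1 passed in B cells and in NK cells against T cells. Tested with no limit on low counts, because with that limit no member was tested in either comparison, 2 of 9 members passed in B against T cells (16.2% of 23918 genes) and 1 of 9 in NK against T cells (18% of 25359 genes). In the B cells of the 6 mice tested, LILRB1 was at 12.9, 20.0, 39.8, 46.0, 49.1 and 54.8 CPM, against a mean of 2.78 ± 1.21 CPM (SD) in their T cells. No mouse overlapped, and the log2 fold change was 3.69 ± 0.51 (adjusted p = 1.89e-11). B cells held LILRB1 at 30.8 CPM in reaction 1 and 39.5 CPM in reaction 2, with a UMI in 6.85% of thinned cells against 0.63% of T cells (19.3% and 2.1% before thinning).

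NK cells had less. LILRB1 ranged from 0 to 20.2 CPM (median 5.50) in the NK cells of 14 mice and from 0 to 7.69 CPM (median 3.35) in the T cells of 13. The ranges overlapped, and LILRB1 was higher in the NK cells of 9 of 13 mice (log2 fold change 1.11 ± 0.35, adjusted p = 0.0106), with a UMI in 1.77% of thinned NK cells (4.9% before). The NK level was 7.38 CPM (5.48 to 9.73), beside 3.29 CPM (2.54 to 4.18) in T cells. Tumor cells of the same sort held LILRB1 at 6.49 CPM (2.97 to 12.3) on 9 UMIs, an interval that overlapped with that of NK cells. A UMI was found in 1.67% of thinned tumor cells (6.04% before). VCAN was at 61.3 CPM in tumor, 22.9 CPM in NK and 18.0 CPM in T cells. The part of free RNA in the NK value was not tested. LILRA4 also passed in B cells, on 7 UMIs against 2 in T cells (higher in 4 of 6 mice, adjusted p = 0.025). The remaining members did not pass in either comparison. The signalling partners were taken from the test of NK against T cells with the limit on low counts, in which 3180 of 7607 genes passed. Of 8 partners tested 7 were higher in NK cells, led by FCER1G (3.91), TYROBP (3.87) and SYK (3.81) on the log2 scale.

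Across the 18 gates, which left out the plasmacytoid cells, the levels of 7 members varied together. Pearson correlations of log2(CPM + 1) between pairs of LILRA1, LILRA2, LILRA5 and LILRB1 to LILRB4 ranged from 0.849 (LILRA1 with LILRB4) to 0.985 (LILRB2 with LILRB3). With LILRB5 they ranged from 0.198 for LILRA2 to 0.562 for LILRB4. The points share their libraries and differ in depth, and they include T, NK, mast and tumor gates in which these members were low. These values are therefore a description. In the wide plasmacytoid gate these members parted when each was set against its own level in the cDC2 of the same 4 mice. By pooled CPM, LILRB4 was at 295% of that level and LILRB1 at 91.3%. LILRA5 was at 22.7%, LILRB2 at 9.17%, LILRA2 at 3.88% on 1 UMI, LILRB3 at 2.93% and LILRA1 at 0%.

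The genes nearest to each member by the same measure, among 12554 genes, differed between members. LILRA1 was nearest to PRAM1 (0.987), LILRA5 to CD300E (0.985) and FCAR (0.983), LILRB2 to CLEC4A (0.986) and LILRB3 to the G-CSF receptor CSF3R (0.988). LILRA2 was nearest to GLT1D1 (0.975), LILRB1 to SIGLEC14 (0.947) and LILRB4 to EPB41L3 (0.975).

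LILRB5 had other neighbours. Its nearest genes were the phospholipid transfer protein PLTP (0.972), the iron exporter SLC40A1 (0.970) and the lectin CD209 (0.965). LILRA4, over 19 gates with the wide plasmacytoid gate, was nearest to AC007381.1 (0.933) and KCNK10 (0.903). It was at 267 CPM in that gate and at or under 7.54 CPM in the others, so these values rest on 1 gate. LILRA4 UMIs had a part in adding that gate, and the values are a description only.

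Genes that act with the family were followed in the same tests. In monocytes against C1Q macrophages, 5 of the 9 signalling partners were higher and 1 lower, near the 59.9% called over all genes, among them the kinases FGR (2.18) and LYN (0.48), and the list's median was 0.16 beside −0.01 over all genes. Of 9 other inhibitory myeloid receptors 6 were higher and 2 lower, led by CLEC12A (1.47), CD300LF (1.28) and PILRA (1.20). Of 5 tested neighbours in the leukocyte receptor complex 4 were higher and 1 lower, among them VSTM1 (3.27) and the IgA receptor FCAR (2.06). Class I genes were divided, with 3 higher and 2 lower of 5, and of the other reported ligands S100A8 was higher (3.56) and APOE lower (−2.92).

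In LYVE1+ macrophages the other inhibitory receptors were mostly lower, 6 of 9 lower and 1 higher where 11.9% of all genes passed, with SIGLEC10 (−2.94), CD300LF (−1.84) and SIGLEC7 (−1.30) as the largest, and the list's median was −0.99 beside 0.01 over all genes. APOE was lower there too (−3.43). In cDC1 and in LAMP3 DC, 5 of 5 class I genes were higher than in cDC2, with HLA-F at 1.1 and 1.82. Of all genes 36.6% and 36.4% passed in these comparisons. A link between these genes and the receptors was not tested. In wide plasmacytoid cells FGR (−3.57) was lower than in cDC2 and the phosphatase INPP5D higher (1.52).

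In GLUT1+ cells, where 45.8% of all genes passed, 4 of 9 signalling partners were higher and 1 lower, and 6 of 9 other inhibitory receptors were higher and 1 lower, with CD300LF at 0.82. Above the C1Q limit, where 25.8% passed, the partners had 2 higher and 1 lower and the inhibitory receptors 3 higher and 2 lower. MT1G+ cells had FN1, the gene of fibronectin, at 2.95 and S100A8 at 2.20, and those above the C1Q limit had them at 2.57 and 1.04. In S100A12+ monocytes FN1 was lower (−2.06) while S100A8 (2.16), FCAR (0.67) and LILRA6 (0.48) were higher.

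Maraviroc was the treatment the study tested. Over all myeloid gates, the 7 maraviroc mice had LILRB1 at 94.8 to 181 CPM (median 147) and the 7 untreated mice at 98.8 to 171 CPM (median 116), with overlapping ranges. LILRB5 ranged from 25 to 75.7 CPM (median 52.8) under maraviroc and from 44.3 to 65.6 CPM (median 60.6) without it. Across the 8 members tested, log2 fold changes lay between −0.12 and 0.10, with SEs from 0.16 to 0.24, and the groups overlapped for each of them.

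No member passed, and 0% of genes passed, in all myeloid gates (12999 genes tested, 443 with an unadjusted p under 0.05), monocytes (8830 and 309), C1Q macrophages (10174 and 288) or cDC2 (4813 and 212), by edgeR. DESeq2 called none either, with 378, 225, 225 and 185 genes at an unadjusted p under 0.05. By edgeR no member had an unadjusted p under 0.05 in these 4 tests. Within the narrower gates the largest member difference was −0.32 ± 0.31 for LILRA1 in C1Q macrophages. None of the listed ligands, partners, neighbours or other receptors passed.

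The 2 reactions pointed in opposite directions. In reaction 1, LILRA2 was at 15.1 to 17.3 CPM in maraviroc mice and 20.3 to 27.5 CPM in untreated mice over all myeloid gates, with no overlap. In reaction 2 it was at 24.7 to 35.7 CPM and 18.6 to 25.1 CPM. The log2 fold changes were −0.61 and 0.39. LILRA5 behaved alike, at −0.62 in reaction 1 and 0.52 in reaction 2, and so did LILRA1 (−0.74 and 0.27), LILRB1 (−0.38 and 0.38), LILRB2 (−0.41 and 0.27), LILRB3 (−0.37 and 0.32) and LILRB4 (−0.47 and 0.54). LILRB5 was at −0.02 and −0.14.

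No member passed within a reaction. The difference between the reactions was tested as an interaction in the same 4 sets of cells, with 6 to 8 members in each, and 0 of 29 member tests passed, with 15 at an unadjusted p under 0.05 and a lowest adjusted p of 0.169. In all myeloid gates 1785 of the 12999 genes had an unadjusted interaction p under 0.05. In monocytes 745 of 8830 genes did, in C1Q macrophages 952 of 10174 and in cDC2 275 of 4813. All myeloid gates include the cells of the other sets, so the 29 tests count the same members repeatedly and are not separate. The share of monocytes among myeloid cells moved along, with means of 13.7% in maraviroc and 18.3% in untreated mice in reaction 1, and 30.5% and 23.5% in reaction 2. Within monocytes alone, the means of LILRA1, LILRA2, LILRA5 and LILRB1 to LILRB4 also reversed between the reactions. Those of LILRB3 differed little, at 115 ± 20.9 CPM (SD) under maraviroc and 121 ± 25.2 CPM without it in reaction 1. In reaction 2 they were 140 ± 10.9 and 133 ± 3.75 CPM. Within C1Q macrophages alone the means of these members reversed too, except for LILRA1, which was level in reaction 2 at 7.96 and 7.92 CPM. In monocytes LILRB1 had means of 181 CPM in maraviroc and 249 CPM in untreated mice in reaction 1, and 279 and 209 CPM in reaction 2. In C1Q macrophages LILRB3 had 54.5 and 68.7 CPM, then 83.6 and 62.8 CPM. The part of the monocyte share in the members' values was not tested.

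**Figure D5:**
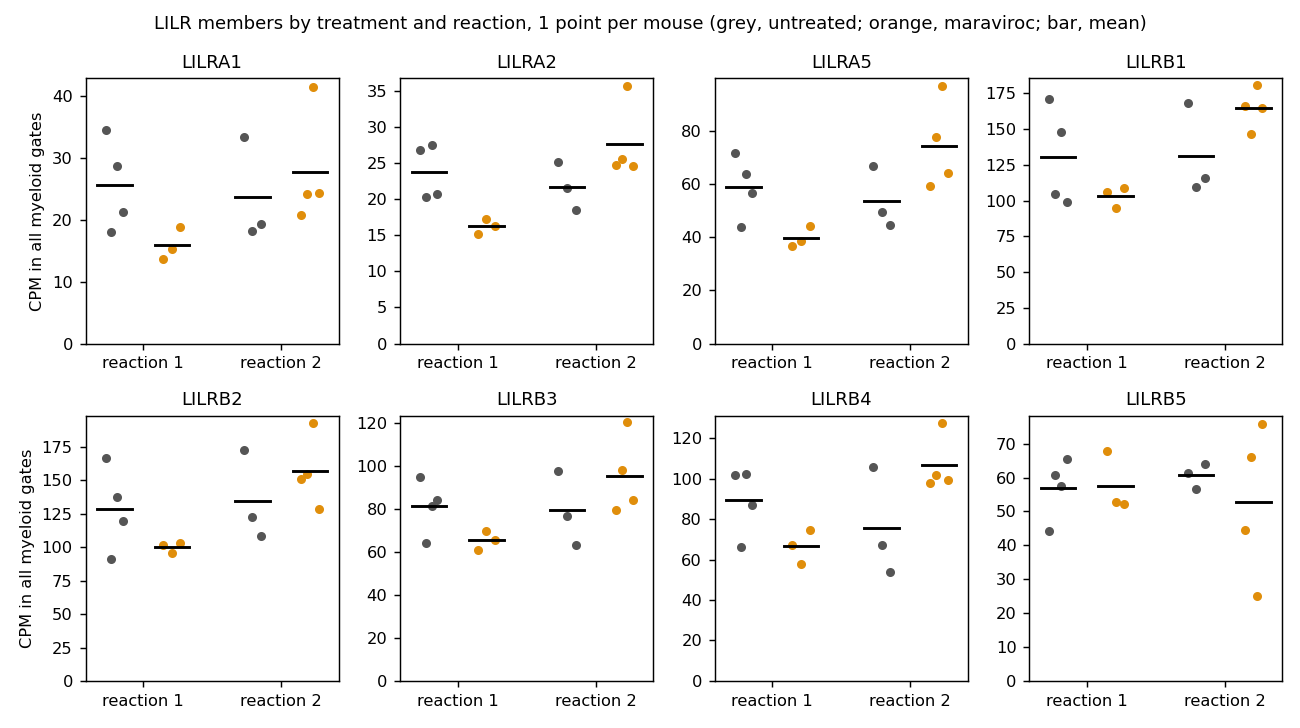
CPM of 8 members over all myeloid gates, 1 point per mouse, by reaction (horizontal axis) and treatment (untreated in grey, maraviroc in orange, bars at the mean, each axis starting at 0). For LILRA1, LILRA2, LILRA5 and LILRB1 to LILRB4 the maraviroc mean was below the untreated mean in reaction 1 and above it in reaction 2, as in LILRA2 at 15.1 to 17.3 against 20.3 to 27.5 CPM in reaction 1.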

How the data were processed

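The deposited files hold raw UMI counts per gene and hashtag for barcodes called as cells, which the authors made with Cell Ranger 9.0.1 on GRCh38 (processing notes; Seurat 5.1.0 followed), with no normalization and no other sample columns. Hashtag counts were called here with HTODemux (Seurat 5.3.0, R 4.3.3, positive quantile 0.99), after the study's methods, and hashtag doublets and negatives were removed; doublets within a mouse were not. Barcodes with above 600 and up to 6000 genes and under 12.5% mitochondrial UMIs were kept. A cell entered a lineage that held at least 3 UMIs and at least 75% of its marker UMIs. UMIs were summed per mouse and gate where the mouse had at least 10 cells, and tested over all genes with edgeR 4.0.16 (TMM, filterByExpr, quasi-likelihood, Benjamini-Hochberg, threshold 0.05), gate genes left out. Gates were paired because both come from the same animal, so the mouse was a replicate block, except between treatments; counts were also tested with DESeq2 1.42.0 and under other filters. SEs are fold changes divided by the root of F. Named list genes were up to 3 called genes with the largest change per list and comparison. The tests were checked on simulated data. Members and lists were chosen with earlier results of these data known. LILRA3 was not analysed here. Of the listed genes, 1 is not reported here.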

Additional observations from a re-analysis of the deposited data

Results flagged for a closer look

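In 58 groups of 7 mice of 1 treatment, a mouse stood apart from the rest of its group in 3, by a Dixon test for which chance gives about 1 in 20. LILRA1 was at 41.5 CPM over all myeloid gates in 1 maraviroc mouse of reaction 2, on 244 UMIs in 447 cells, where the other 6 maraviroc mice were at 13.7 to 24.4 CPM. LILRA2 was at 20.2 CPM in the C1Q macrophages of 1 untreated mouse of reaction 1, on 36 UMIs in 317 cells, against 7.53 to 11.8 CPM in the other 6. LILRB5 was at 44.3 CPM over all myeloid gates in 1 untreated mouse of reaction 1, on 269 UMIs in 1000 cells, against 56.5 to 65.6 CPM in the other 6.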

How the results depend on the processing

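Of 641 alternative values of members' fold changes between gates, 574 kept their direction and their side of the threshold, 46 lost the threshold, 25 of them with reaction 1 alone, 15 gained it and 6 changed sign. The 27 alternative levels moved by less than the spread between mice. With reaction 1 alone the members called were 0 for S100A12+ monocytes (5 as reported), 2 for cDC2 against monocytes (5), 1 for cDC1 (3), 2 for LAMP3 DC (4), 4 for GLUT1+ cells (7), 1 for MT1G+ cells (8), 0 for CXCL10+ macrophages (2), 0 for IL1A/CCL20+ cells (1), and, above the C1Q limit, 1 for GLUT1+ (4) and 0 for MT1G+ cells (1). In the same order, these fits called 276 of 5821 genes, 442 of 6519, 381 of 2463, 551 of 1728 and 2260 of 8708. Those from MT1G+ cells on called 411 of 8942, 389 of 8709, 117 of 8758, 1343 of 8373 and 40 of 8733. With reaction 2 alone 2 members were called for S100A12+ monocytes (453 of 7595 genes). For GLUT1+ cells above the C1Q limit 1 member was called (792 of 7981 genes). With reaction 1 alone, 1 member was above the low-count limit for cDC1 and 2 were for LAMP3 DC, and each of these passed. Fewer mice enter these fits and, for cDC1 and LAMP3 DC, fewer members were tested. Beyond that the cause was not tested. With no limit on low counts 7 members were called for cDC1, 7 for LAMP3 DC, 4 for LYVE1+ macrophages and 2 for IL1A/CCL20+ cells. In that order the fits called 2211 of 19862, 1871 of 17548, 1428 of 22505 and 411 of 20480 genes. At 90% of the lineage UMIs 3 of 7 members tested were called for S100A12+ monocytes (727 of 6557 genes) and 5 of 5 for cDC1 (726 of 3527). With every barcode given to its highest hashtag 5 of 5 members tested were called for cDC1 (1763 of 4447 genes) and 5 of 8 for LYVE1+ macrophages (1662 of 9742). The count for IL1A/CCL20+ cells was 0 under DESeq2, without the replicate block, with above 1000 genes, at 90% of the lineage UMIs, and with any 1 mouse left out (0 to 0). DESeq2 called 153 of 8533 genes there, and the fit without the block 54 of 8533. With above 1000 genes 90 of 8475 were called, and at 90% of the lineage UMIs 81 of 8095. Without the replicate block the count for S100A12+ monocytes was 2, and apart from IL1A/CCL20+ cells the block moved no other count of members called by over 1.5 times.

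Between gates, the members that changed sign reached at most 0.12 on the other side. LILRB3 was at 0.040 in cDC2 against monocytes with reaction 1 alone, at −0.043 in LYVE1+ macrophages with reaction 2 alone, and at 0.12 in IL1A/CCL20+ cells with every barcode. LILRA5 in CXCL10+ macrophages was at −0.036 with every barcode and −0.0064 with reaction 2 alone. With 1 mouse left out, LILRB1 in wide plasmacytoid cells ranged from −0.40 to 0.12, LILRB5 in LYVE1+ macrophages from 2.16 to 2.39, LILRB1 there from −1.75 to −1.33, and the members called for LAMP3 DC from 3 to 4. For maraviroc over all myeloid gates, 35 of 176 alternatives changed sign and none passed. With reaction as a block LILRB3 was at −0.015, LILRB2 at −0.065, LILRA5 at −0.020 and LILRA2 at −0.066. LILRA2 was at −0.0059 at 90% of the lineage UMIs and −0.017 with every barcode, and LILRB5 at 0.079 with every barcode. With reaction 1 alone LILRB3 was at −0.37, LILRB2 at −0.41, LILRA5 at −0.62, LILRA2 at −0.61, LILRB1 at −0.38 and LILRB4 at −0.47, and with reaction 2 alone LILRA1 was at 0.27. With 1 mouse left out, LILRB3 ranged from −0.082 to 0.10, LILRB5 from −0.19 to 0.027, LILRB2 from −0.11 to 0.10, LILRA5 from −0.082 to 0.17, LILRA2 from −0.14 to 0.082 and LILRB4 from −0.011 to 0.19.

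The gates of narrow plasmacytoid cells (38 cells) and nonclassical monocytes (77) were too small for a test. Depth differed between the reactions, with medians of 3020 and 9767.5 UMIs per cell, and limits what can be said of LILRA1 and LILRA2 in macrophage states and of all members in LAMP3 DC, T and NK cells, where few UMIs lay behind a value. Mice were the replicates, and the comparisons of LYVE1+, IL1A/CCL20+, LAMP3 and plasmacytoid cells rested on 3 to 5 of them. The wide plasmacytoid gate, the C1Q bins, the C1Q limits within states, the interaction of treatment and reaction and the mice left out in gate comparisons were chosen after seeing the data.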
